A study of Mus musculus with 8 samples.

Results

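Cytotoxic granule genes encode the proteins with which lymphocytes kill a bound cell. The set described here holds 10 genes chosen by name as granzymes, perforin, other granule proteins, the death ligand gene Fasl and a granzyme inhibitor, and all 10 had a row among the 24421 genes counted. Their mRNA was measured in follicular regulatory T (TFR) cells, a Foxp3-expressing subset that enters B cell follicles, sorted from mouse spleen as Foxp3+YFP+ CXCR5+ PD1+ CD4+ cells. There were 4 libraries of genotype Blimp1-flox with Foxp3-cre, here Blimp1-flox, and 4 from Wildtype (WT) mice. Both groups had received peanut with cholera toxin, a mucosal adjuvant, by mouth in 2 challenges, and cells were taken on day 36. Foxp3-cre is active in Foxp3-expressing cells in general, so the deletion is not limited to TFR cells. Whether the WT mice carried Foxp3-cre, how many alleles were floxed, the age of the mice, and whether each library came from its own mouse are not given in the labels. The p-values therefore measure only how these libraries vary, which may in part be technical variation.

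In cytotoxic lymphocytes, perforin forms pores in the membrane of the bound cell and lets granzymes, a family of serine proteases, enter it. The proteins are stored in secretory lysosomes on the proteoglycan serglycin, and the killing cell protects itself with serpins that inactivate granzymes. Some regulatory T cells use granzymes and perforin against effector T cells and B cells. Blimp1, the transcriptional repressor encoded by Prdm1, is known to be needed for full granzyme B expression in mouse CD8 T cells. The comparison addressed gene expression in TFR cells that lack Blimp1.

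The genes lie at separate loci in mm10, apart from neighbouring granzymes. Nkg7 spans chromosome 7 from 43437138 to 43438246, and Prf1 spans chromosome 10 from 61297836 to 61304263. Gzma and Gzmk lie on the same strand of chromosome 13 with 70892 bases between them. Gzmb lies on chromosome 14 from 56258858 to 56262260, with 24201 bases between it and Gzmc of the same granzyme cluster. No exon of the 10 genes overlapped an exon of another gene in the deposited annotation, so no counts of theirs were shared with an overlapping gene.

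The 250 bases before the RefSeq start (GRCm38.p6) are shown for 4 genes, with letters in capitals where a searched motif lay on either strand. Nkg7 is shown because it was the granule transcript that passed the test, Gzmk and Gzmb because their groups were apart, and Serpinb9 because it alone held the letters GTGAAAG. The groups of Prf1 were also apart, and its window was searched but is not shown. The windows are chr7:43436888-43437137 (plus strand) for Nkg7, chr13:113180966-113181215 (minus strand) for Gzmk, chr14:56262335-56262584 (minus strand) for Gzmb and chr13:33004291-33004540 (plus strand) for Serpinb9.
Nkg7: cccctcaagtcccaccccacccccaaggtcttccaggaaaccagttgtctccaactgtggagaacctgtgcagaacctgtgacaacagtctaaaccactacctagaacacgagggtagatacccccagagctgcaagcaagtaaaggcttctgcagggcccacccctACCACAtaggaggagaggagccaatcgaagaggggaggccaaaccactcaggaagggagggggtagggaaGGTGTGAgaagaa
Gzmk: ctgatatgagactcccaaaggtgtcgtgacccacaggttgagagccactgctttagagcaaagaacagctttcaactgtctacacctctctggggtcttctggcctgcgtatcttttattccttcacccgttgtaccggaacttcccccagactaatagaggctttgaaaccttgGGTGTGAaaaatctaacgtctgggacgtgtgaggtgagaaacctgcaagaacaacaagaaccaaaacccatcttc
Gzmb: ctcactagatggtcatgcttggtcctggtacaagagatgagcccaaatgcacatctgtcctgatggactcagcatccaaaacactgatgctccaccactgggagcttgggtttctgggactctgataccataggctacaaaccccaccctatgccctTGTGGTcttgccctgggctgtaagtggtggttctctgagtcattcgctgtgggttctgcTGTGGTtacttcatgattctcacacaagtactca
Serpinb9: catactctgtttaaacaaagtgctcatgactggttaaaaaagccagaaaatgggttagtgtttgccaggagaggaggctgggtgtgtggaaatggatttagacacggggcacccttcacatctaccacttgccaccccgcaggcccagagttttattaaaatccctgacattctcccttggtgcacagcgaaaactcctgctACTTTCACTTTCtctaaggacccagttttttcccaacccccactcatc
GAAAGT and GTGAAAG are core letters of the Blimp1 motif, GGTGTGA belongs to the T-box motif and TGTGGT to the Runx motif. Nkg7 held GGTGTGA from 13 to 7 bases before its start and TGTGGT on the opposite strand from 83 to 78 bases before it. Gzmk held GGTGTGA from 75 to 69 bases before its start, and Gzmb held TGTGGT at 2 places. These letters were not limited to genes whose groups lay apart. GGTGTGA also lay in a window of Gzmm, and TGTGGT in windows of Gzmm, Srgn and Gzma, whose groups overlapped. Prf1, whose groups lay apart, held TGTGGT as well. In Serpinb9 GAAAGT lay at 2 adjacent places on the opposite strand, and GTGAAAG lay across both. Of 32851 RefSeq windows of this length, 12.3% held GAAAGT, 3.57% GTGAAAG, 3.33% GGTGTGA and 14.0% TGTGGT, so GAAAGT and TGTGGT are common letters. RefSeq windows were found for 9 of the 10 genes, Ctsw being without one. Neither Blimp1 core lay in the windows of Nkg7, Gzmk, Gzmb, Prf1, Gzma or Fasl, while Gzmm and Srgn held GAAAGT in 1 of the windows at their 2 annotated starts. These matches are letters in a window and not sites.

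Levels are CPM, counts scaled to the size of each library, with the TMM factor that adjusts for library composition. To set genes beside each other, levels were divided by exon length in kilobases. Per kilobase, Srgn, the gene of serglycin, stood far above the rest, with 1239 ± 113 in Blimp1-flox and 1170 ± 169 CPM per kilobase in WT libraries (SD, n = 4 each), and it ranked 13 among the 12363 genes tested in WT libraries. Nkg7, a membrane protein of cytotoxic granules, had 18.8 ± 5.48 in Blimp1-flox and 38.4 ± 5.43 CPM per kilobase in WT libraries. Ctsw, the cysteine protease cathepsin W of cytotoxic lymphocytes, had 25.4 ± 1.38 in Blimp1-flox and 34.0 ± 6.81 CPM per kilobase in WT libraries. Nkg7 stood above Ctsw by its WT mean and below it in Blimp1-flox, where their ranges did not overlap but that of Nkg7 overlapped the range of Serpinb9. In WT libraries the ranges of Nkg7 and Ctsw overlapped.

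The classical killing proteins were low in both groups. Prf1, the perforin gene, had 0.204 ± 0.0987 CPM per kilobase in Blimp1-flox and 0.565 ± 0.126 in WT libraries, the lowest WT level of the set. The 5 granzymes ranged from 0.0396 to 1.83 CPM per kilobase in mean in Blimp1-flox and from 1.44 to 6.48 in WT libraries, led by Gzmk in both groups. In WT libraries the ranges of Gzmk and Fasl, of Fasl and Gzmb, of Gzmb and Gzma, and of Gzma and Gzmm overlapped, so the order of those neighbours is not separated by their spread. In Blimp1-flox the ranges of Fasl and Gzmk, of Gzmk and Gzmm, of Gzmm and Gzma, and of Prf1 and Gzmb overlapped likewise. The granzyme levels summed to 4.62, 5.198, 4.53 and 3.75 CPM in the Blimp1-flox libraries. In the WT libraries they summed to 7.23, 6.18, 12.03 and 17.3 CPM, with no overlap between the groups. Of all genes tested, 4.72% were lower in every Blimp1-flox library than in any WT library. Among the granzymes only Gzmk and Gzmb had groups apart, while those of Gzma and Gzmm overlapped. In WT 4, Gzmk had 7.13 and Gzmb 6.79 CPM.

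Prdm1 counts were lower in the Blimp1-flox libraries. Prdm1 had 13.4, 7.53, 9.60 and 16.6 CPM in the Blimp1-flox libraries and 39.1, 31.8, 65.1 and 71.0 CPM in the WT libraries, and its fall in Blimp1-flox cells measured -2.14 ± 0.31 on the log2 scale (SE; edgeR quasi-likelihood adjusted p = 0.0203). No Blimp1-flox library reached the lowest WT library. The Prdm1 call was lost without Blimp1-flox 1 (log2 fold change -2.21, edgeR adjusted p = 0.103). It was also lost with a B cell marker score as covariate (log2 fold change -1.44, edgeR adjusted p = 0.687). The floxed exons are not named in the labels, so these whole-gene counts cannot show the deletion itself.

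Of the 10 granule genes, 9 passed the filter on low counts and 1, Nkg7, fell at an adjusted p under 0.05, while none rose. Over all genes tested 0.501% were called by the same rule, 0.243% lower and 0.259% higher. In Nkg7, Prf1, Gzmk and the untested Gzmb every Blimp1-flox library lay below every WT library, and none of the 10 showed the reverse. Groups lay apart in 8.47% of all genes tested, 4.72% in this direction and 3.75% in the other. Of the 9 tested genes 7 had a log2 fold change below 0, against 49.9% of all genes tested, and their median was -0.42, against 0.0012 for all genes.

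**Figure D1:**
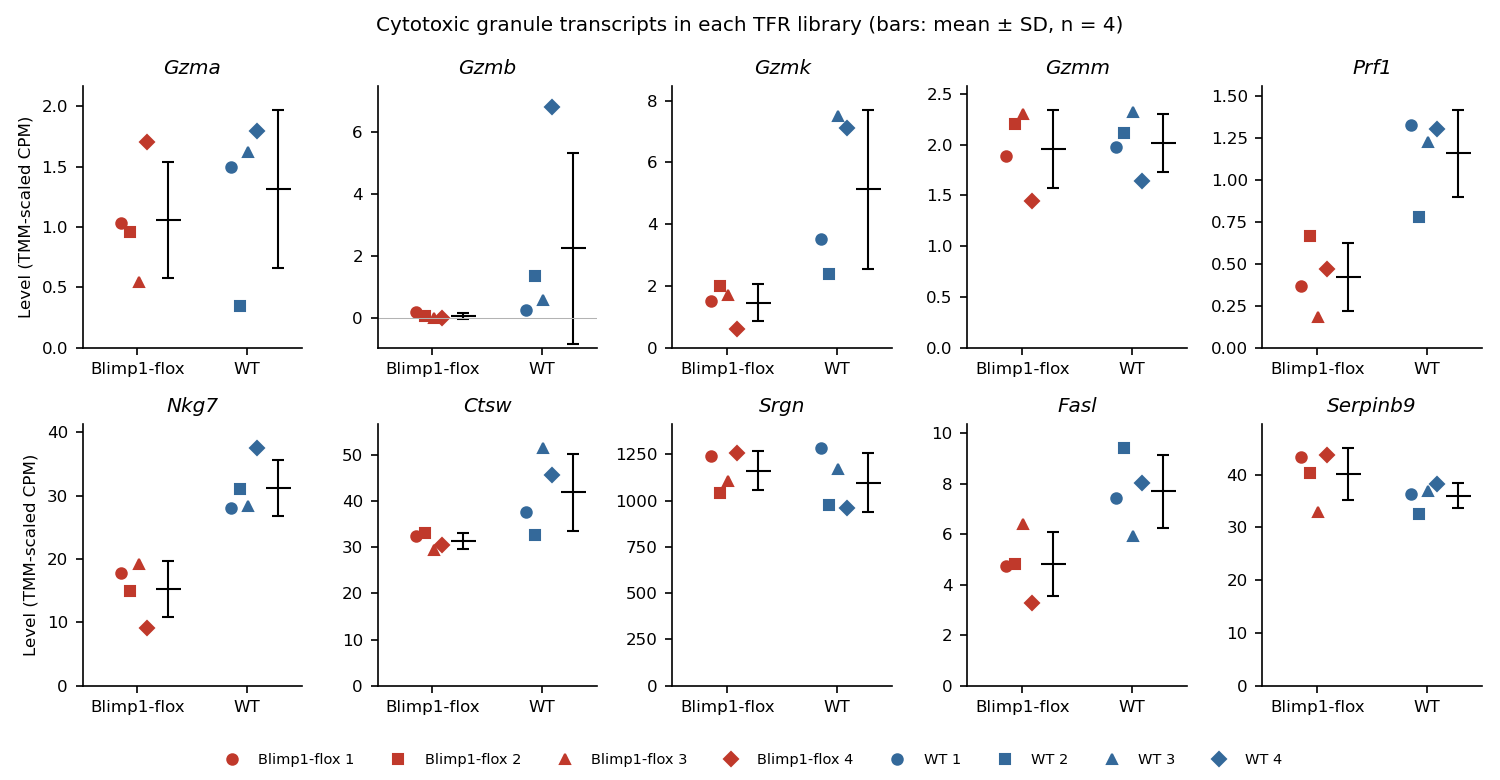
Level of each granule transcript in each library in TMM-scaled CPM, with 1 panel per gene, Blimp1-flox left of WT, points for libraries and bars for the mean ± SD of 4 libraries. Nkg7, Prf1, Gzmk and Gzmb have every Blimp1-flox point below every WT point, and the Gzmb value of 6.79 CPM in WT 4 lies far above the other 7.

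Nkg7, whose protein is needed for full granule release by mouse cytotoxic lymphocytes, had 17.8, 14.9, 19.2 and 9.16 CPM in the Blimp1-flox libraries. It had 28.1, 31.0, 28.4 and 37.6 CPM in the WT libraries. The highest Blimp1-flox library stood well below the lowest WT library. Nkg7 fell 2.05-fold (log2 fold change -1.03 ± 0.20 SE; edgeR adjusted p = 0.0470). In bulk samples such as these, fewer cells holding the transcript and less of it per cell cannot be told apart. The call was lost without WT 2, WT 3, WT 4, Blimp1-flox 1, 2 or 4, with edgeR adjusted p between 0.0722 and 0.126, and with library totals as the only scaling (0.0545). It was also lost with a B cell marker score as covariate (log2 fold change -0.76, edgeR adjusted p = 0.844) and with a replicate block (-1.07, 0.107). It was kept in DESeq2 and limma-voom with quality weights and without both WT 4 and Blimp1-flox 3 (edgeR adjusted p = 0.0278, log2 fold change -1.07).

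Among the transcripts with the pattern most like that of Nkg7 over the 8 libraries were those of Cish, a feedback inhibitor of cytokine signalling, and Marcks, a substrate of protein kinase C. The centred log2 CPM differed from that of Nkg7 by a root mean square of 0.16 for Cish and 0.18 for Marcks. Cish had 63.3, 64.4, 92.9 and 44.7 CPM in the Blimp1-flox libraries and 112, 145, 108 and 181 CPM in the WT libraries. As in Nkg7, Blimp1-flox 4 was the lowest library and WT 4 the highest. Both genes were chosen for this likeness among 10696 genes, so their levels are a description.

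Prf1 had few counts, with 38 over the Blimp1-flox and 114 over the WT libraries. It had 0.365, 0.665, 0.180 and 0.469 CPM in the Blimp1-flox libraries and 1.33, 0.778, 1.23 and 1.31 CPM in the WT libraries. The groups did not overlap, although WT 2 stood close to Blimp1-flox 2. The log2 fold change of Prf1 was -1.46 ± 0.47 (SE), which did not pass (edgeR adjusted p = 0.179).

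Gzmk, a granzyme with trypsin-like cleavage, had the lowest log2 fold change of the tested granule genes. It had 1.52, 2.00, 1.69 and 0.596 CPM in the Blimp1-flox libraries and 3.51, 2.38, 7.51 and 7.13 CPM in the WT libraries. WT 3 and WT 4 were the high libraries, and WT 2 lay just above Blimp1-flox 2. The log2 fold change was -1.82 ± 0.44 (SE) and did not pass in the edgeR quasi-likelihood test (adjusted p = 0.0931). It passed in DESeq2 (log2 fold change -1.82, adjusted p = 0.00364) and in limma-voom weighted by library quality (-2.40, adjusted p = 0.0296), where 2.19% and 2.27% of all genes were called lower.

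Gzmb, which cleaves after aspartate and activates caspases in the target cell, did not pass the filter on low counts. Its counts were 3, 1, 0 and 0 in the Blimp1-flox libraries and 6, 31, 13 and 182 in the WT libraries. Most WT counts came from WT 4, and every WT library still held more CPM than every Blimp1-flox library. For the libraries at 0, Blimp1-flox 3 and 4, the limit that 3 counts allow was 0.108 and 0.128 CPM. The pooled level was 54.6-fold lower in Blimp1-flox than in WT, a ratio of 0.0183, and the 95% interval of this ratio, 0.00495 to 0.0475, covers counting error only. Without WT 4 the pooled ratio was 0.0616, with an interval from 0.0162 to 0.168. With no filter on low counts the log2 fold change of Gzmb did not pass (edgeR adjusted p = 0.157). It also entered the test when a Blimp1-flox library was left out, and did not pass in any of those 4 refits (edgeR adjusted p = 0.148 to 0.314). Without WT 1, its lowest WT library, it entered through the WT libraries where it was high, so the edgeR adjusted p of 0.0381 there is no independent support.

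The other granzymes showed no such separation. Gzma, a trypsin-like granzyme, had 1.03, 0.956, 0.539 and 1.70 CPM in the Blimp1-flox libraries and 1.49, 0.346, 1.62 and 1.79 CPM in the WT libraries. The lowest library of all was WT 2, and the groups overlapped (log2 fold change -0.32 ± 0.51 SE; edgeR adjusted p = 0.796). Gzmm, a granzyme that cleaves after methionine, had 1.45 to 2.30 CPM in the Blimp1-flox and 1.64 to 2.33 CPM in the WT libraries. Its log2 fold change was -0.04 ± 0.30 (SE; edgeR adjusted p = 0.965), the value closest to 0 in the set. Gzma and Gzmk are neighbours on chromosome 13, and their fold changes were not tested against each other. The 6 further granzymes of the chromosome 14 cluster, Gzmc to Gzmg and Gzmn, had 24 counts over the Blimp1-flox and 30 over the WT libraries, and 4 of them were at 0 in every library.

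Among the other granule proteins, Ctsw was lower in 3 of 4 Blimp1-flox libraries than in any WT library. It had 32.5, 33.01, 29.4 and 30.5 CPM in the Blimp1-flox libraries and 37.7, 32.7, 51.6 and 45.7 CPM in the WT libraries. WT 2 lay within the Blimp1-flox range, and WT 3 and WT 4 were again the high ones. The log2 fold change of Ctsw was -0.42 ± 0.14 (SE; edgeR adjusted p = 0.186). Srgn had 1242, 1043, 1104 and 1260 CPM in the Blimp1-flox libraries and 1285, 974, 1172 and 959 CPM in the WT libraries. Its groups overlapped throughout (log2 fold change 0.08 ± 0.11 SE; edgeR adjusted p = 0.751).

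Fasl, the ligand of the death receptor Fas and a route of killing that does not need granzymes, had 4.74, 4.82, 6.40 and 3.28 CPM in the Blimp1-flox libraries. It had 7.43, 9.42, 5.93 and 8.02 CPM in the WT libraries. The groups overlapped by Blimp1-flox 3 and WT 3 alone, and the log2 fold change of -0.68 ± 0.24 (SE) did not pass (edgeR adjusted p = 0.210). Serpinb9, the inhibitor of granzyme B, had 43.4, 40.3, 32.98 and 43.7 CPM in the Blimp1-flox libraries and 36.3, 32.6, 37.0 and 38.3 CPM in the WT libraries. Its groups overlapped (log2 fold change 0.15 ± 0.12 SE; edgeR adjusted p = 0.545). The related genes Serpinb9b to Serpinb9g had 1 count in all, in a Blimp1-flox library, so few reads were counted for these copies. The labels do not say how reads that fit several copies were treated.

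**Figure D2:**
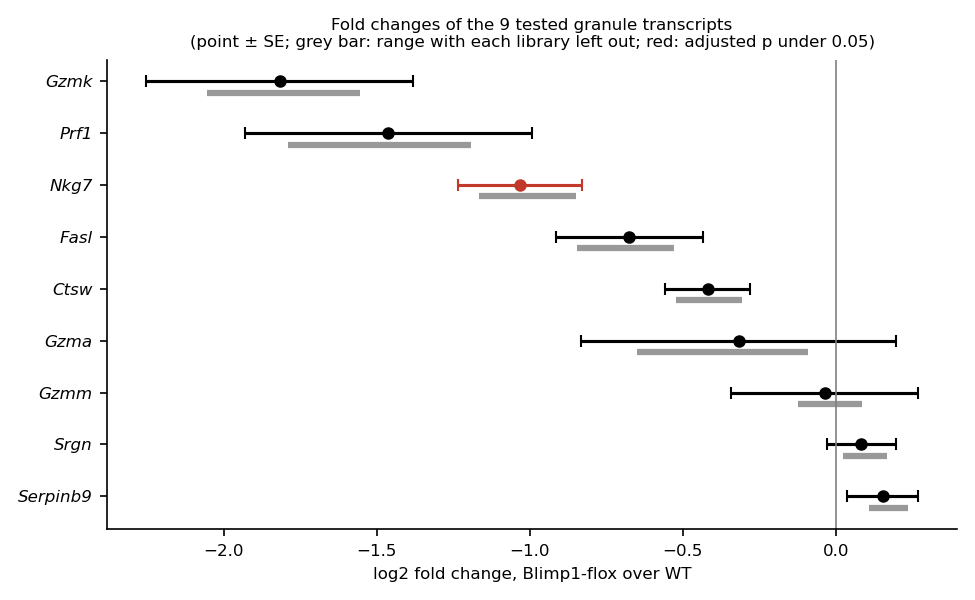
Log2 fold change, Blimp1-flox over WT, of the 9 tested granule transcripts, with points and bars for the estimate ± SE and grey bars for the range when each library is left out in turn. Nkg7, in red, is the transcript with an adjusted p under 0.05, Gzmk and Prf1 have lower estimates with wider errors, and Srgn and Serpinb9 lie just above 0.

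Other genes of the cytotoxic pathway were taken from 6 lists chosen with earlier results of these data known, and 1 gene among them, Prdm1, passed the test. In the list of granule maturation and lysosome genes 0 of 19 tested genes passed, with 10 log2 fold changes above 0, 9 below and a median of 0.0114. Single estimates in this list reached from -2.02 for Ctsh to 1.97 for Cd63, both with overlapping groups and chosen after their values were seen (edgeR adjusted p = 0.308 and 0.218). Its most abundant members were Ctsb, the lysosomal protease cathepsin B, Calr, the chaperone calreticulin, and Lamp1, a lysosomal membrane protein exposed on release, with log2 fold changes of 0.18, -0.0056 and 0.31. In the granule exocytosis list 0 of 20 passed, with 13 above 0 and a median of 0.0663. Coro1a, an actin regulator, Stx11, a membrane fusion protein of granule release, and Unc13d, which primes granules for release, had log2 fold changes of 0.28, 0.46 and -0.0609. No gene of these 2 lists passed in the edgeR test over all genes.

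Stx11 and also Rab27a, a gene chosen after its values were seen, were higher in every Blimp1-flox library than in any WT library, as were 3.75% of all genes tested. In the same list Vamp2 and Wipf1, also chosen after their values were seen, were lower in every Blimp1-flox library (log2 fold changes -0.27 and -0.16; edgeR adjusted p = 0.236 and 0.353). Rab27a, the small GTPase that docks granules at the membrane, had 102, 105, 103 and 122 CPM in the Blimp1-flox libraries and 59.4, 75.8, 88.8 and 75.6 CPM in the WT libraries. Its log2 fold change of 0.53 ± 0.12 (SE) did not pass in edgeR (adjusted p = 0.0820). DESeq2 called both Rab27a (adjusted p = 0.00427) and Stx11 (0.0255), and so did limma-voom (adjusted p = 0.0214 for Rab27a and 0.0358 for Stx11). Over all genes DESeq2 called 193 of 11878 higher and limma-voom 213 of 12363.

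In the list of granzyme inhibitors and related serpins 0 of 5 tested genes passed, and the median was -0.11. Serpina3g, an inhibitor of lysosomal cysteine proteases, had a log2 fold change of -0.24, Serpinb6a 0.26 and Serpinb6b -0.11. In the list of death receptor ligands and caspases 0 of 16 passed, with a median of -0.0426. Ltb, the gene of lymphotoxin beta, Casp8, the initiator caspase of death receptors, and Bax, a pore former of mitochondria, had log2 fold changes of -0.0255, -0.26 and 0.0223. None of these genes passed.

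Of 22 tested regulators of cytotoxic genes 1, Prdm1, fell and none rose, with a median of -0.13. The most abundant were Bhlhe40, a basic helix-loop-helix repressor, Tcf7, which holds T cells in a stem-like state, and Tox, a factor of T cell exhaustion, with log2 fold changes of -0.33, 0.21 and 0.23. Tbx21, the gene of the T-box factor T-bet, and Eomes, that of the related eomesodermin, were chosen after their values were seen. Tbx21 had 11.1, 11.6, 15.5 and 9.67 CPM in the Blimp1-flox libraries and 17.2, 15.6, 17.5 and 25.7 CPM in the WT libraries. Blimp1-flox 3 and WT 2 nearly met. The log2 fold change of -0.66 ± 0.19 (SE) did not pass in edgeR (adjusted p = 0.153) and passed in DESeq2 (adjusted p = 0.0435) and limma-voom (0.0264). DESeq2 called 2.19% of all genes lower and limma-voom 2.27%. Eomes had 2.80, 3.70, 4.17 and 1.53 CPM in the Blimp1-flox libraries and 6.78, 7.52, 2.63 and 10.2 CPM in the WT libraries. Its groups overlapped at WT 3 (log2 fold change -1.15 ± 0.40 SE; edgeR adjusted p = 0.2002).

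Of 30 killer receptor and other cytotoxic lymphocyte genes 15 were tested and 0 passed, with a median of 0.14. Il2rb, the shared beta chain of the IL-2 and IL-15 receptors, Hcst, the signalling adaptor DAP10, and Cd160 had log2 fold changes of -0.0180, 0.14 and 0.13. Ifng, the gene of interferon gamma and chosen after its values were seen, had 9.18, 9.73, 9.96 and 9.41 CPM in the Blimp1-flox libraries. It had 15.8, 19.0, 14.1 and 32.8 CPM in the WT libraries. The groups lay apart, as they did in this direction in 4.72% of all genes tested. The log2 fold change of -1.09 ± 0.23 (SE) did not pass in edgeR (adjusted p = 0.0633). It passed in DESeq2 (adjusted p = 9.0e-04) and limma-voom (0.0315), where 2.19% and 2.27% of all genes were called lower. Klrb1c, the receptor NK1.1 and also chosen after its values were seen, went the other way, with 30.7, 35.3, 32.0 and 37.4 CPM in the Blimp1-flox libraries and 26.6, 19.1, 24.7 and 13.5 CPM in the WT libraries (log2 fold change 0.69 ± 0.18 SE; edgeR adjusted p = 0.114). Klrb1c passed in DESeq2 (adjusted p = 0.0147) and limma-voom (0.0220), where 193 of 11878 and 213 of 12363 genes were called higher.

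**Figure D3:**
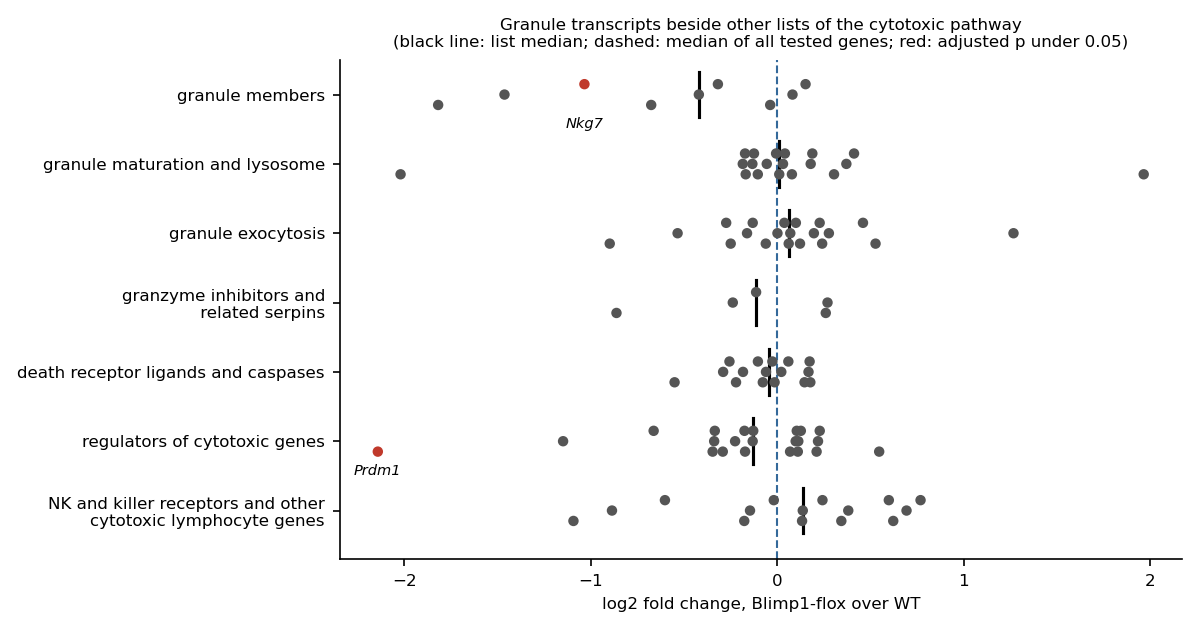
Log2 fold change, Blimp1-flox over WT, of each tested gene in the granule set and in 6 further lists, with a black line at each list's median and a dashed line at the median of all tested genes. The granule set has a median of -0.42, the lists of maturation, exocytosis and killer receptor genes have medians just above 0, and Nkg7 and Prdm1 are the genes in red that passed.

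The libraries held from 16425538 to 27595939 counts, and TMM factors ran from 0.976 to 1.02. Of 11 markers of TFR and T cells, 10 lay above 50 CPM in every library, and the exception, Il2ra, had 28.1 CPM at its lowest. Il2ra, the alpha chain of the IL-2 receptor, fell in Blimp1-flox cells, with 39.0 ± 13.2 CPM in Blimp1-flox and 102.5 ± 20.0 CPM in WT libraries (SD, n = 4 each; log2 fold change -1.39, edgeR adjusted p = 0.0311). Foxp3 had 65.9 CPM in Blimp1-flox and 87.0 CPM in WT libraries in mean, with overlapping groups (edgeR adjusted p = 0.176). Some markers of cytotoxic cells outside the CD4 lineage were near 0 and others were not. Cd8a had 1 count over the Blimp1-flox and 21 over the WT libraries, and Ncr1, the receptor NKp46 of NK cells, had 0 and 6 counts. The summed CD8 markers, nearly all Cd8b1, were at 10.4 to 17.9 CPM in Blimp1-flox and 12.5 to 16.8 CPM in WT libraries. The list of 10 NK and ILC markers summed to 37.0 to 43.6 CPM in Blimp1-flox and to 29.2 to 35.3 CPM in WT libraries, most of it Klrb1c, and 3 of its genes were at 0 in every library. Other members of the list went both ways. Eomes had 287 counts over the Blimp1-flox against 675 over the WT libraries, and Klra7 had 1 against 7. Tyrobp had 201 against 179, Fcer1g 146 against 136 and Klrk1 15 against 13. The part of NK cells and ILCs in the granule gene results was not tested.

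B cell transcripts moved with the same libraries as Gzmk and Ctsw. All 21 B cell markers were tested, 20 had a log2 fold change below 0 and none passed in edgeR. Their sum was 710, 641, 594 and 572 CPM in the Blimp1-flox libraries and 699, 649, 1087 and 2747 CPM in the WT libraries. WT 3 and WT 4, the high libraries for Gzmk and Ctsw, were also highest for this list, and WT 4 was highest for Gzmb and Nkg7. The mean log2 CPM of the list was 0.78 to 1.88 in Blimp1-flox and 2.60 to 5.47 in WT libraries, so this score and genotype cannot be told apart. In a refit with that score as covariate, log2 fold changes were -0.76 for Nkg7, -1.001 for Prf1 and -0.63 for Gzmk, and none passed (edgeR adjusted p = 0.844, 0.902 and 0.905). Ctsw was at -0.0832 in that refit (edgeR adjusted p = 0.958), against -0.42 in the main test. Fasl was at -0.77 (edgeR adjusted p = 0.8855), against -0.68 in the main test. Without WT 4 the log2 fold change was -0.93 for Nkg7, -1.40 for Prf1, -1.62 for Gzmk and -0.38 for Ctsw (edgeR adjusted p = 0.0722, 0.284, 0.144 and 0.314). Beyond these refits the part of B cell RNA in the results was not tested. The neutrophil list also differed between libraries, with 79.8, 54.6, 0.396 and 126 CPM in the Blimp1-flox libraries and at most 11.4 CPM in WT libraries, and its part in the results was not tested. Pancreas transcripts were also present, at 51.8 to 107 CPM in Blimp1-flox and 33.2 to 70.3 CPM in WT libraries, and all 13 tested had a log2 fold change above 0. With their score as covariate the value of Nkg7 was -1.49 on the log2 scale (edgeR adjusted p = 0.0487).

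**Figure D4:**
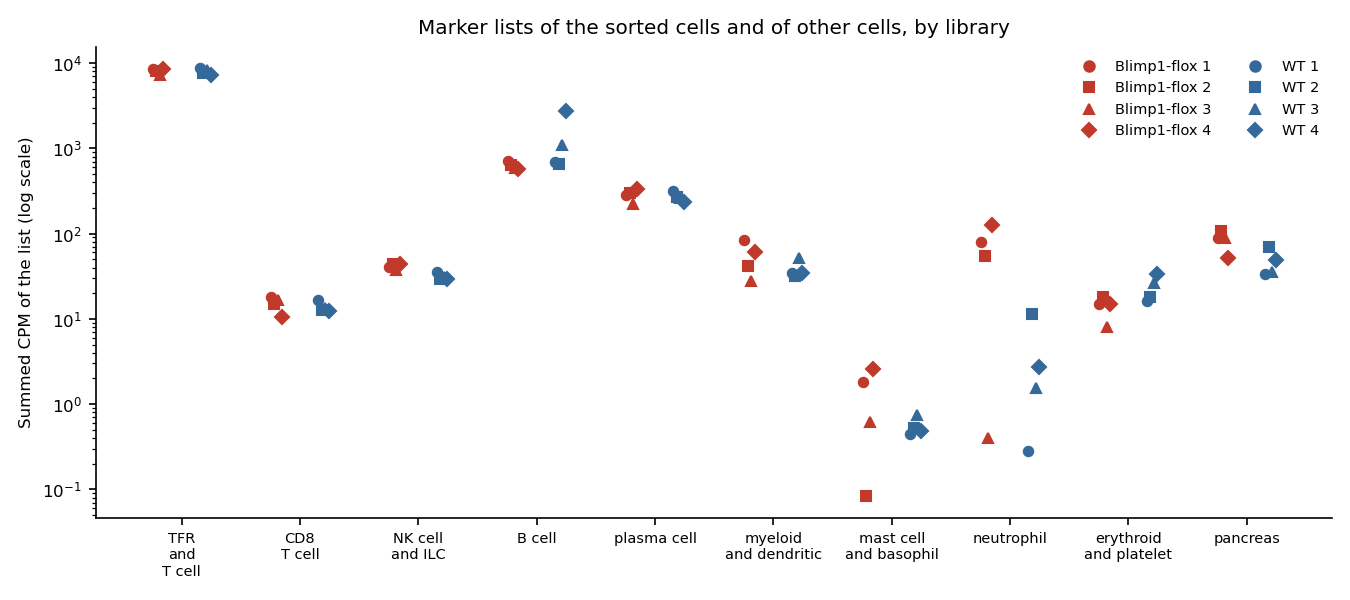
Summed CPM, on a log scale, of the marker list of the sorted cells and of 9 lists for other cells, with Blimp1-flox libraries left of WT libraries. The sum of the TFR and T cell list runs from 7260 to 8607 CPM in Blimp1-flox and from 7164 to 8654 CPM in WT libraries, the B cell list reaches 2747 CPM in WT 4, and the neutrophil list is above 50 CPM in Blimp1-flox 1, 2 and 4.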

How the data were processed

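RNA of freshly sorted TFR cells was made into 8 libraries with an mRNA kit. The submitters' processing notes name STAR 2.5.2b, featureCounts, Subread 1.5.1 and the build mm10. The authors deposited whole-number counts for each gene, not normalized. The deposited table also gives each gene's exon length, a measurement of another kind, used for levels per kilobase. Annotation and strand setting: not given in the sources used here. All columns with samples were used.

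Genes were kept with filterByExpr of edgeR 4.0.16 in R 4.3.3, which left 12363, and scaled by TMM. The quasi-likelihood F test with robust estimation and genotype alone was fitted to all of them, with Benjamini-Hochberg adjustment and a threshold of 0.05. The SE of a log2 fold change is its size over the root of F. Counting intervals (95%, exact conditional) and limits cover counting error only. Log2 CPM used a prior count of 2. The test was also run on simulated counts that held a genotype effect alone. They held no B cell or other signal of single libraries, so that run cannot speak to such signal here.

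The members, lists, naming rule and alternatives were chosen with earlier results of these data known. The rule named all 10 members, Prdm1, the called genes and the 3 most abundant tested genes of each list, and the 3 genes most like each called member. 1 of these is not reported here. Other genes are said to be chosen after their values were seen. Alternatives were DESeq2 1.42.0, limma-voom 3.58.1, other scalings and filters, a replicate block, covariates and left-out libraries. No 2 libraries of a group were within sampling noise of each other.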

Additional observations from a re-analysis of the deposited data

Results flagged for a closer look

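Libraries far from the other 3 of their group, with a gap near the whole range of the group, were found in 3 of 90 groups of values, and chance gives about 1 in 20. Gzmb in WT 4 was 6.79 CPM, against 0.242 to 1.34 CPM in the other WT libraries. Rab27a in Blimp1-flox 4 was 122.3 CPM, against 101.7 to 104.7 CPM in the other Blimp1-flox libraries. The summed myeloid and dendritic markers in WT 3 were 52.0 CPM, against 31.5 to 34.9 CPM in the other WT libraries.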

How the results depend on the processing

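The main test called 62 genes and 1 granule gene. DESeq2 called 453 and 2, limma-voom with quality weights 494 and 2, and a threshold of 0.1 gave 182 and 2. The B cell score as a covariate left 0 and 0, with 701 genes at an unadjusted p under 0.05, against 2123 in DESeq2 and 1998 in the main edgeR test. Without WT 4 and Blimp1-flox 3 together 157 genes were called. Library totals as the only scaling left 0 granule genes. With each library left out in turn the counts ran from 20 to 127 genes and from 0 to 2 granule genes, the second being Gzmb without WT 1 (adjusted p = 0.0381), where it entered the test through its high WT libraries. In the 4 refits without a Blimp1-flox library Gzmb did not pass (adjusted p = 0.148 to 0.314). The replicate block called 52 genes and 0 granule genes (Nkg7 adjusted p = 0.107). Same-numbered libraries had correlations of 0.10, 0.15, -0.10 and -0.11 of their deviations from the group means. Blimp1-flox 1 was most like WT 1 and Blimp1-flox 2 most like WT 2, while Blimp1-flox 3 was most like WT 4 and Blimp1-flox 4 most like WT 1. With 4 libraries per group these values cannot settle whether the numbers mark pairs.

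Over 645 refits of 34 named genes, 582 kept sign and side of the threshold. Most of these genes were not called in the main test, so this total says little about the calls. Nkg7 kept its call in 10 of 19 refits and Prdm1 in 15 of 19. The Prdm1 call was lost without Blimp1-flox 1, with no filter and with either covariate. Values that changed sign did not pass in any refit. With the B cell score these were Gzma 0.43, Srgn -0.0888, Lamp1 -0.19, Serpinb6b 0.0828, Ltb 0.0208, Tcf7 -0.0652, Cd160 -0.0225 and Ccl5 0.0756, the last chosen after its values were seen. With the score of pancreas transcripts, which were higher on average in Blimp1-flox, they were Gzma 0.83, Calr 0.14, Ltb 0.0164 and Il2rb 0.0272. With limma-voom they were Gzma 0.14 and Cd160 -0.0331. With upper-quartile scaling Calr was 0.0032, and with the replicate block 3.0e-04. Without WT 4 and Blimp1-flox 3 together they were Gzma 0.0952, Serpinb6b 0.0085, Ltb 0.0234 and Cd160 -0.0071. With each library left out the ranges were -0.12 to 0.0844 for Gzmm, -0.0824 to 0.0504 for Calr, -0.15 to 0.0348 for Ltb, -0.0434 to 0.0837 for Bax and -0.0703 to 0.0253 for Il2rb. The cause of these changes was not tested. Prf1 rested on few counts, with 38 over the Blimp1-flox and 114 over the WT libraries. Gzmb had 4 and 232, and 182 of its WT counts lay in WT 4.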
